A study of Mus musculus with 2 samples.

Results

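The troponin genes were examined in gastrocnemius, the large calf muscle, of female mice 10 days old. All 8 genes of the family in mouse were taken by name: Tnnt1, Tnnt2 and Tnnt3 for troponin T, Tnni1, Tnni2 and Tnni3 for troponin I, and Tnnc1 and Tnnc2 for troponin C. They are 8 of the 55536 named genes in the tables. The animals carried the strain name B6CASTF1/J, an F1 hybrid of C57BL/6J and CAST/EiJ, and the labels give no treatment or engineered allele. The series holds 1 group of 2 total RNA libraries, biological replicates 1 and 2, each made from 300 ng of RNA with ribosomal RNA reduced and ERCC spike-in RNAs added. The labels do not say whether each replicate is 1 animal or a pool, so the spread given here may be partly technical.

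Troponin is the calcium switch of striated muscle. Troponin C binds calcium, troponin I holds the thin filament in its blocked state until calcium arrives, and troponin T ties the other subunits to tropomyosin. Each subunit comes from separate genes for fast fibres (Tnnt3, Tnni2, Tnnc2), slow fibres (Tnnt1, Tnni1, Tnnc1) and heart (Tnnt2, Tnni3 and again Tnnc1), while Tnnt2 and Tnni1 are also known from embryonic skeletal muscle. The troponin T genes are further known for alternative exons that encode a variable acidic N-terminal stretch and, in Tnnt3, for a choice between a pair of exons near the C-terminal end.

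Replicate 1 held 35925081 expected counts and replicate 2 held 39969380. Of 5 skeletal muscle fibre markers, 5 were detected, which here means a TPM (transcript abundance scaled per length and library) of at least 1 in both libraries. The share of all genes that passes this limit is not given here, so counts of detected genes show presence alone. Replicate 1 stood apart in markers of some other cell types. The summed TPM of 6 bone and cartilage markers was 257 in replicate 1 and 13.7 in replicate 2. Ibsp, Bglap, Spp1 and Mmp13 made up most of that gap, while the cartilage genes Col2a1 (14.7 and 11.5) and Acan (2.24 and 1.54) differed less. The sum of 5 marrow granulocyte markers was 48.1 and 0.50. That of 4 fibroblast markers was 5437 and 3412, with Col1a1 at 3542 and 1887 but Dcn at 255 and 230. The sum of 5 smooth muscle and pericyte markers was 362 and 439, with the rise in Acta2 at 229 and 314. Acta2 is also among the thin filament genes listed below. Rgs5 (92.3 and 85.6) and Myh11 (10.6 and 8.79) were lower in replicate 2. Tagln (28.59 and 28.63) and Cnn1 (1.94 and 2.14) differed little. The part of these cell types in the differences between libraries reported for troponin genes was not tested. With 1 group and 2 libraries, values are given for each library and as mean ± SD (n = 2). No p is given, because the smallest two-sided sign-flip p that 2 libraries allow is 0.5.

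Fast troponin transcripts stood far above all others. On the TPM scale Tnnt3, which encodes fast troponin T (ENSMUSG00000061723.18, chromosome 7, 142498836 to 142516009, plus strand, mm10), measured 7593 in replicate 1 and 8766 in replicate 2, or 8179 ± 830 (SD, n = 2). Tnnc2, fast troponin C (ENSMUSG00000017300.9, chromosome 2, 164777161 to 164779967, minus strand), measured 6100 and 6499 TPM, or 6299 ± 282. Tnni2, fast troponin I (ENSMUSG00000031097.15, chromosome 7, 142441808 to 142444410, plus strand), measured 5002 and 5771 TPM, or 5386 ± 543. These 3 genes ranked 6, 8 and 10 among 22015 nuclear protein coding genes by TPM in replicate 1 and 7, 9 and 11 in replicate 2. Their levels rested on between 89369 and 245189 expected counts per library.

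The slow genes formed a second tier. Tnnt1, slow troponin T (ENSMUSG00000064179.13, chromosome 7, 4504570 to 4516382, minus strand), measured 171 and 166 TPM, or 168 ± 3.60. Tnnc1, the troponin C of slow fibres and heart (ENSMUSG00000091898.8, chromosome 14, 31208312 to 31211729, plus strand), measured 129 and 124 TPM, or 127 ± 3.59. Tnni1, slow troponin I (ENSMUSG00000026418.16, chromosome 1, 135779434 to 135810989, plus strand), measured 94.9 and 86.9 TPM, or 90.9 ± 5.66. Between the lowest fast gene and the highest slow gene lay a gap of 29.3-fold in replicate 1 and 34.8-fold in replicate 2. Among the slow genes neighbouring levels differed by at most 1.43-fold.

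The cardiac genes came last, and they differed from each other. Tnnt2, cardiac troponin T (ENSMUSG00000026414.13, chromosome 1, 135836354 to 135852260, plus strand), was present at 23.3 and 19.2 TPM on 646 and 593 expected counts. Tnni3, cardiac troponin I (ENSMUSG00000035458.15, chromosome 7, 4518305 to 4524229, minus strand), measured 0.61 and 0.94 TPM on 10 and 18 counts, so its level is poorly fixed at this depth. Tnnt2 was 38.2-fold and 20.4-fold above Tnni3 in the 2 libraries. Heart muscle markers were mostly absent: Myl7, Nppb, Nkx2-5 and Tbx20 had 0 counts in both libraries of the RSEM-format tables (Tbx20 was at 0.269 and 0.205 TPM in the kallisto-format tables), and 2 of 9 passed TPM 1, Myh6 at 47.3 and 37.3 and Sln at 17.0 and 12.7, both also known from skeletal muscle. Myh6 is a close paralog of Myh7, so its share of their common reads is uncertain. Fewer cells of one type and less RNA per cell cannot be told apart in bulk tissue, so the slow and cardiac levels do not say how many fibres carried them.

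The order of the 8 genes was the same in both libraries, and the ranges of neighbours in that order did not overlap. The kallisto-format transcript tables, a second deposited set of estimates, gave higher levels for each gene when summed over its transcripts, for example 11124 and 12619 TPM for Tnnt3. They kept every neighbouring pair in the same order except 1: Tnni1 lay above Tnnc1 there, at 247 and 202 against 162 and 149 TPM. In the RSEM-format tables the effective length used for TPM was the annotated length minus 99 nucleotides, and in the kallisto-format tables the median reduction was 343 nucleotides in replicate 1 and 329 in replicate 2, and less for very short transcripts.

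**Figure D1:**
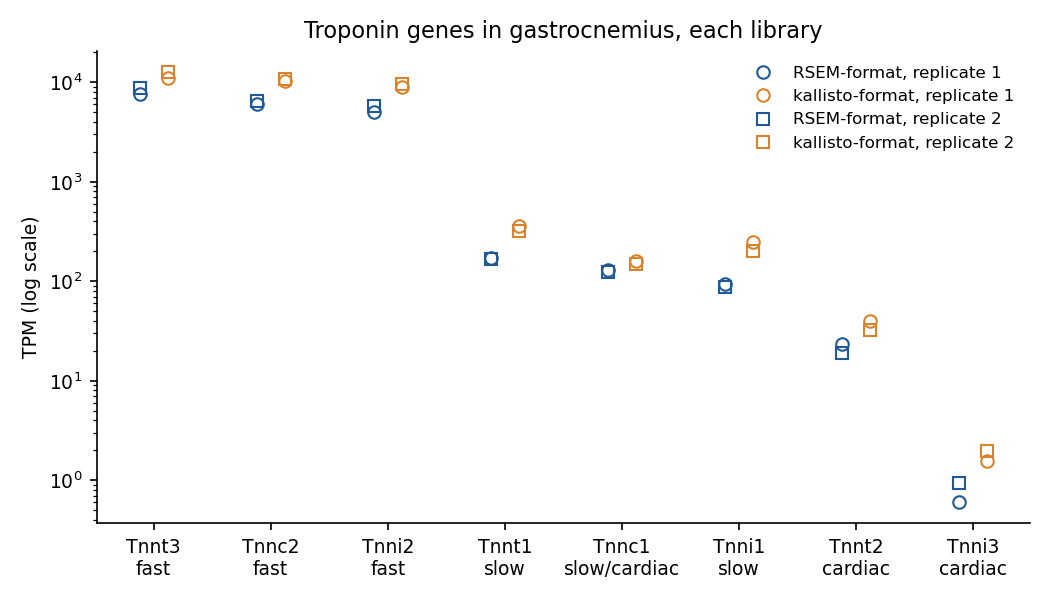
TPM of each troponin gene on a log axis, with circles for replicate 1, squares for replicate 2, blue for the RSEM-format tables and orange for the kallisto-format tables. In the RSEM-format tables the 3 fast genes lie between 5002 and 8766 TPM, the 3 slow genes between 86.9 and 171, Tnnt2 near 20 and Tnni3 below 1.

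Troponin is built of 1 T, 1 I and 1 C subunit, and transcripts of the subunits were within a factor of 1.53 of each other. Summed over genes, troponin T transcripts measured 7787 and 8951 TPM, troponin C transcripts 6229 and 6623, and troponin I transcripts 5098 and 5859. Troponin T thus lay above troponin C by 1.25-fold and 1.35-fold, a log2 ratio of 0.38 ± 0.08 (SD, n = 2). Troponin I lay below troponin C, at log2 -0.23 ± 0.08. The ratio of T to I was 1.53-fold in each library, a log2 ratio of 0.61. The order T, C, I held in both table formats, although the kallisto-format ratio of T to C was nearer to equality at log2 0.20 and that of T to I at 0.37. Altogether the family made up 4.41% ± 0.295 (SD, n = 2) of nuclear protein coding TPM.

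Among the slow genes alone the ratios depended on the table. Slow T exceeded slow C by log2 0.41 ± 0.01 (SD, n = 2) in the RSEM-format tables and by 1.12 in the kallisto-format tables. Slow I over slow C changed sign, from -0.48 ± 0.05 to 0.52. The kallisto-format tables put 42.8% and 38.0% of Tnni1 on Tnni1-202, a partial transcript of 509 nucleotides that had a TPM of 0 in the RSEM-format tables, and 29.4% and 35.4% on Tnni1-205. The effective length of Tnni1-202 was 178 and 183 nucleotides in the kallisto-format tables and 410 in the RSEM-format tables. Tnnc1, the denominator of both ratios, had 2265 and 2475 counts in the RSEM-format tables but 1415 and 1599 in the kallisto-format tables. Those of Tnni1 were 2673 and 2809, then 2931 and 3026, and those of Tnnt1 4179 and 4656, then 4280 and 4795. The parts of these differences in the slow ratios were not tested. Tnni2 also differed: with only protein coding transcripts counted, the kallisto-format ratio of I to C over all genes fell to log2 -1.23, because 54.0% and 52.4% of Tnni2 was placed there on Tnni2-203, a transcript annotated as a retained intron.

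**Figure D2:**
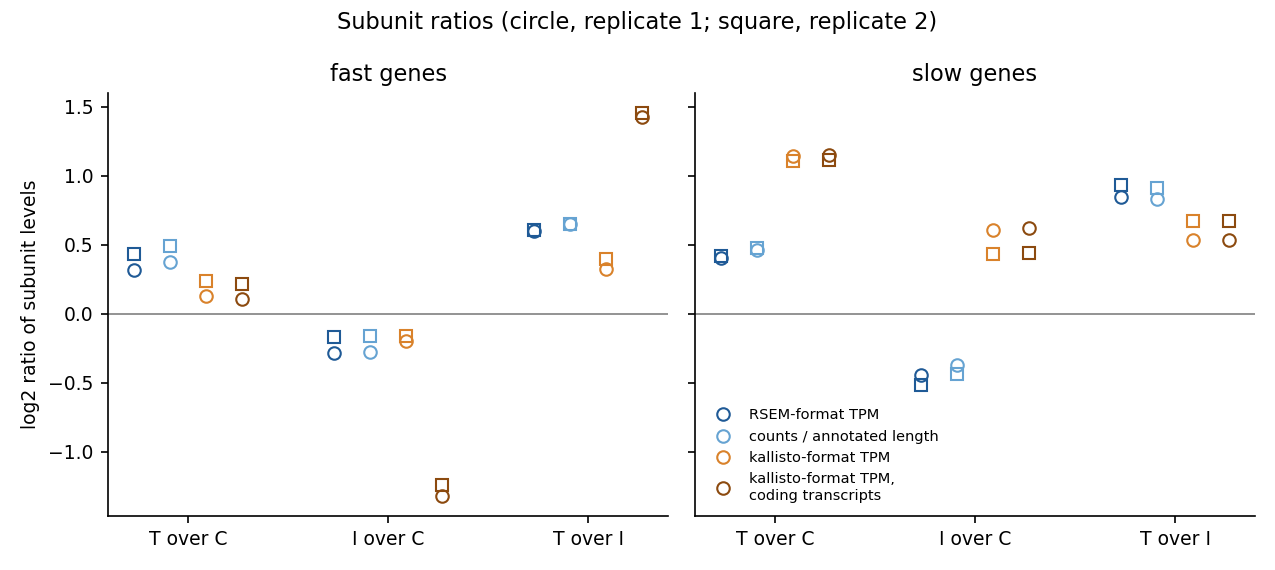
Log2 ratios between subunits for the fast genes (left) and the slow genes (right), with circles for replicate 1, squares for replicate 2 and colours for 4 ways of measuring the level. Fast T lies above fast C and fast I below it under each measure, while slow I over slow C is near -0.48 in the RSEM-format tables and 0.52 in the kallisto-format tables.

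The fast gene supplied nearly the same share of each subunit. Tnnt3 made up 97.5% and 97.9% of troponin T TPM (97.7% ± 0.302, SD, n = 2), Tnni2 98.1% and 98.5% of troponin I (98.3% ± 0.265) and Tnnc2 97.9% and 98.1% of troponin C (98.0% ± 0.142). The slow genes held 2.20% and 1.85% of T, 1.86% and 1.48% of I, and 2.08% and 1.88% of C. Tnnt2 held 0.299% and 0.215% of T, and Tnni3 0.0120% and 0.0160% of I. The kallisto-format tables gave fast shares of 96.9%, 97.6% and 98.5% for T, I and C. In each subunit and both formats the fast share was higher in replicate 2.

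Other sarcomere and calcium handling genes with a fast and a slow form gave a frame for these shares. On the same TPM scale the fast share was 98.0% ± 0.203 (SD, n = 2) for myosin heavy chains (Myh1, Myh2 and Myh4 against Myh7), 98.6% for the regulatory light chains Mylpf and Myl2, 98.9% for the alkali light chains Myl1 and Myl3 and 98.6% for the calcium pumps Atp2a1 and Atp2a2. Myh8 and Myh3 were left out of the myosin share. Of the TPM of 9 sarcomeric myosin heavy chains, Myh8 held 10.8% and 5.84% and Myh3 0.389% and 0.231%. The calcium store proteins Casq1 and Casq2 gave a fast share of 95.6% ± 1.12. It was lower for the calsarcins Myoz1 and Myoz2 at 86.2% ± 3.13 and for the myosin binding proteins Mybpc2 and Mybpc1 at 68.1% ± 7.91. The troponin shares thus sat beside those of the calcium pumps and of the myosins, the latter taken without Myh8 and Myh3.

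The listed thin filament genes were all transcribed. Of 13 thin filament genes, 13 were detected, with a median of 271 TPM. Acta1, skeletal alpha actin, measured 22384 and 26299 TPM, and Tpm1 and Tpm2, the tropomyosins to which troponin T binds, measured 7364 and 9409 and then 3733 and 3656. All 11 fast fibre genes and all 8 slow fibre genes listed beside the troponins were detected, at medians of 2588 and 149 TPM. The protein kinase A subunit Prkaca, of a kinase known to act on cardiac troponin I, measured 217 and 228 TPM.

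Tnnt3 carried the most transcript forms, with 27 in GENCODE M21, of which 23 are protein coding. Exons 4 to 8 and F encode its variable N-terminal region. They are shown in their order along the transcript, and F is the exon known as fetal. The forms differ mainly by exons 4, 6, 7, 8 and F. Exon 5 is missing only from the partial Tnnt3-222 and from Tnnt3-221, a retained intron with none of these exons. Each exon shown is a multiple of 3 nucleotides long, so that skipping it keeps the reading frame.
Tnnt3 exon 4: aacaatacgaagaggaag
Tnnt3 exon 5: aggaggcccaagaggaag
Tnnt3 exon 6: aagtccaggaggaag
Tnnt3 exon 7: cccccgaaccag
Tnnt3 exon 8: aggaagtccaagaag
Tnnt3 exon F: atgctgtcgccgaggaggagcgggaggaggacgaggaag
These sequences come from the GENCODE M21 transcripts on mm10, chromosome 7, plus strand. Exon 4 lies at 142502740 to 142502757, exon 5 at 142504048 to 142504065, exon 6 at 142504250 to 142504264, exon 7 at 142505288 to 142505299, exon 8 at 142505516 to 142505530 and exon F at 142507750 to 142507788. Exons 4 and 5 are identical at 12 of their 18 bases.

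Near the other end 7 annotated transcripts hold exon 16, 14 hold exon 17 and none holds both, while the rest of the 27 have neither as an exon with these ends. These alternative exons are of equal length, 41 nucleotides, and lie 620 bases apart, exon 16 at 142513665 to 142513705 and exon 17 at 142514326 to 142514366. Capitals mark the bases that differ between them when they are set side by side, and 18 of 41 are identical (43.9%).
Tnnt3 exon 16: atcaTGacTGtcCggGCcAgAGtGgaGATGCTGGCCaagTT
Tnnt3 exon 17: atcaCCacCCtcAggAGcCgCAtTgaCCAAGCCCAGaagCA
Exon 16 is known as the form that prevails in adult fast muscle, and exon 17 as the form of fetal and newborn muscle.

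The choice between exons 16 and 17 was close to even at 10 days. Of the TPM of Tnnt3 transcripts with either exon, 40.1% in replicate 1 and 46.0% in replicate 2 carried exon 16, or 43.1% ± 4.22 (SD, n = 2), and 59.9% and 54.0% carried exon 17. The kallisto-format tables gave 40.5% and 45.2% for exon 16, a mean of 42.9%. The formats therefore differed by less than the libraries did, and in both of them exon 16 was higher in replicate 2. Replicate 2 also had less of the perinatal myosin heavy chain Myh8, at 5.84% of the TPM of 9 sarcomeric myosin heavy chains against 10.8% in replicate 1. The part of this difference, and of the other cell types in replicate 1, in the exon shares was not tested.

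The N-terminal exons were less well fixed. Exon F was in 25.6% and 19.3% of Tnnt3 TPM in the RSEM-format tables and in 78.5% and 67.4% in the kallisto-format tables. Both formats had it lower in replicate 2. Exon 8 was at 70.5% and 61.2% in the RSEM-format tables, lower in replicate 2. In the kallisto-format tables its shares were those of exon F, 78.5% and 67.4%, and are not a second observation. Nearly all TPM there lay on transcripts with both exons or neither. Exon 4 stood at 75.0% in each library in the RSEM-format tables and at 95.9% and 96.9% in the kallisto-format tables. For exons 6 and 7 the formats disagreed on which library was higher: exon 6 was at 68.6% and 72.1% in the RSEM-format and 99.9% and 91.0% in the kallisto-format tables, and exon 7 at 49.2% and 57.1% and then 99.9% and 82.1%. Exon 5 was in 100% of the RSEM-format TPM of spanning transcripts and in 100% and 93.9% of the kallisto-format TPM. The partial Tnnt3-222, which has exon 4 but not exons 5 to 7, held 6.08% of kallisto-format Tnnt3 TPM in replicate 2.

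**Figure D3:**
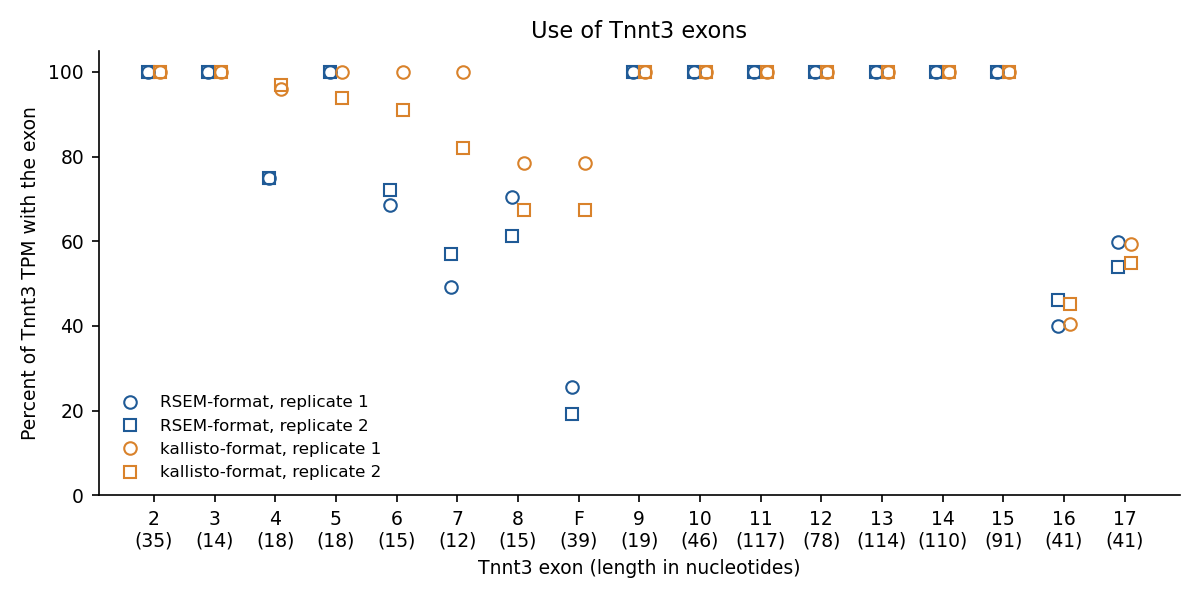
Percent of Tnnt3 TPM with each exon, among transcripts that span it, for exons 2 to 17 in order, with circles for replicate 1, squares for replicate 2, blue for RSEM-format and orange for kallisto-format tables. For exons 16 and 17 the denominator is the TPM of transcripts with either exon; for exon 16 the formats lie together at means of 43.1% and 42.9%, whereas for exon F the means are 22.5% and 73.0%.

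The formats also joined the ends of Tnnt3 differently. Among transcripts with exon 16, exon F was in 33.1% and 26.6% of RSEM-format TPM and 47.0% and 37.6% of kallisto-format TPM. Among those with exon 17 it was in 21.5% and 14.0% against 100% and 100%. The annotation itself is uneven here, since exon F occurs in 1 of 7 transcripts with exon 16 and in 7 of 14 with exon 17. There were 10 combinations of N-terminal exons at 1% or more in both libraries by the RSEM-format estimates and 2 by the kallisto-format ones.

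Single Tnnt3 transcripts showed the same split. By the RSEM-format estimates 11 transcripts reached 1% of the gene in both libraries, led by Tnnt3-224 (exons 4 to 7 with exon 16) at 17.8% and 22.9%. It was followed by Tnnt3-216 at 13.9% and 12.0% and Tnnt3-211, with exons 5 and 8 and exon 17, at 13.79% and 11.01%. Tnnt3-218, with exons 4 to 8 and F and exon 16, held 12.8% and 11.8%. Tnnt3-213 held 10.0% and 11.3%, Tnnt3-201 7.52% and 10.6%, Tnnt3-210 6.35% and 7.40%, Tnnt3-215 7.17% and 4.34% and Tnnt3-202 4.11% and 2.29%. No form held a majority.

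By the kallisto-format estimates 3 transcripts reached 1% in both libraries. Tnnt3-225, with exons 4 to 8 and F and exon 17, led at 58.5% and 41.9%, or 6506 and 5289 TPM. The same transcript was at 0 in both RSEM-format tables, where the upper bound of the model's own interval was 1.41 and 1.02 TPM. Tnnt3-224 was at 17.6% and 23.4%, close to its RSEM-format shares, and Tnnt3-218 held 18.7% and 15.7%. Tnnt3-202 was at 0% and 8.81% and Tnnt3-222 at 0.00171% and 6.08%, so these 2 were above 1% in replicate 2 alone. Transcripts at 0 in both kallisto-format tables made up 55.6% and 52.5% of Tnnt3 in the RSEM-format tables, among them 5 with a mean of at least 5%.

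**Figure D4:**
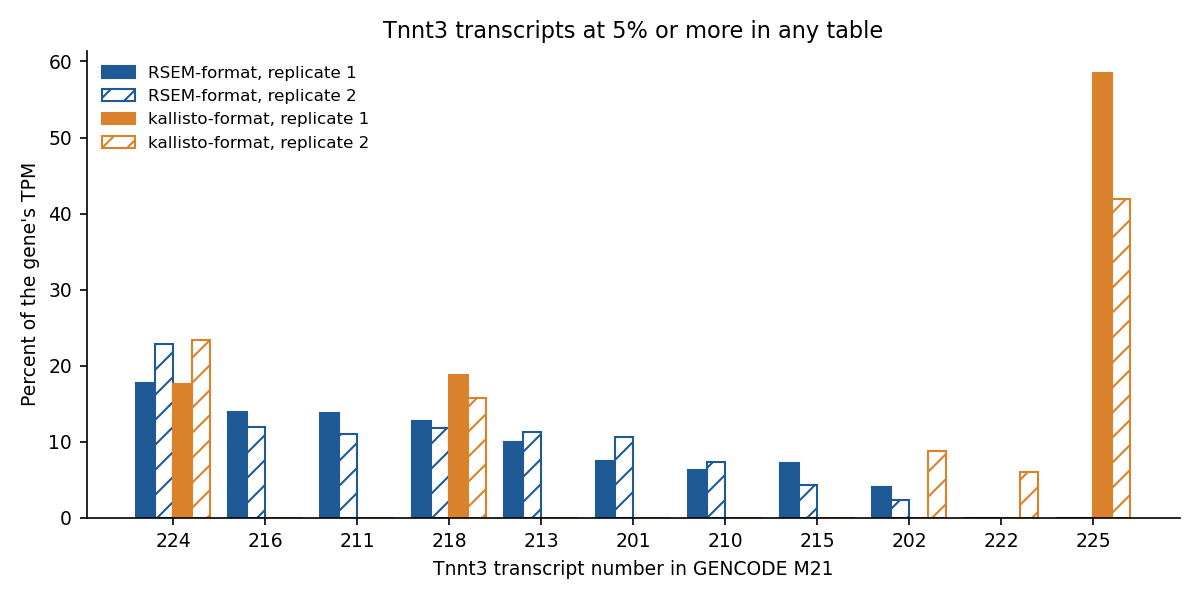
Percent of Tnnt3 TPM held by each of the 11 transcripts that reach 5% in any table, with blue bars for RSEM-format and orange bars for kallisto-format tables, filled for replicate 1 and hatched for replicate 2. Tnnt3-224 has like heights in both formats, at 17.8% and 22.9% against 17.6% and 23.4%, while Tnnt3-225 is at 58.5% and 41.9% in one format and 0 in the other.

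Tnnt1 has 13 transcripts in the annotation, 10 of them protein coding, and varies at exon 5 and at the start of exon 6. Exon 5 (chromosome 7, 4513581 to 4513613, minus strand) is known to separate the longer from the shorter slow troponin T. In exon 6 (4512265 to 4512286) the capitals mark 3 bases that a shorter form of 19 nucleotides leaves out.
Tnnt1 exon 5: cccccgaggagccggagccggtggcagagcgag
Tnnt1 exon 6: AAGaagagcgccccaaacccag
Exon 5 was in 75.9% and 81.5% of Tnnt1 TPM in the RSEM-format tables and in 47.3% and 53.2% in the kallisto-format tables, higher in replicate 2 in both. Exon 6 itself was in 87.0% and 86.9% of RSEM-format TPM, but in 100% of kallisto-format TPM in each library. Tnnt1-213, at 12.9% and 13.0% in the RSEM-format and 0 in the kallisto-format tables, is near the remainder in size. Its 14 exons and coding length of 783 nucleotides equal those of Tnnt1-201, so the remainder is not read here as skipping of exon 6. Of the TPM of transcripts with exon 6 in its longer or shorter form, the shorter form led in both formats: it was in 64.1% and 59.4% of RSEM-format TPM and in 72.9% and 63.7% of kallisto-format TPM. The longer one held 35.9% and 40.6%, and 27.1% and 36.3%.

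Tnnt1-203 led the RSEM-format tables at 29.0% and 31.0%, close to Tnnt1-201 at 27.7% and 31.0%. Tnnt1-206 followed at 21.9% and 16.3%, Tnnt1-213 at 12.9% and 13.0% and Tnnt1-204 at 5.80% and 3.84%. By the posterior mean percent of the same tables Tnnt1-201 led instead, at 27.92% and 30.80% beside 27.65% and 29.59% for Tnnt1-203. The lead between these transcripts is therefore not settled. In the kallisto-format tables Tnnt1-206 led at 52.6% and 46.7%, ahead of Tnnt1-204 at 20.1% and 16.8%, Tnnt1-210 at 15.3% and 18.7% and Tnnt1-203 at 11.7% and 17.5%. Tnnt1-201 and Tnnt1-213 were at 0 there in both libraries. The partial transcripts Tnnt1-204 and Tnnt1-210 are among those that gained. As the counts behind the whole gene were 4179 and 4656, these shares rest on far fewer reads than those of Tnnt3.

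**Figure D5:**
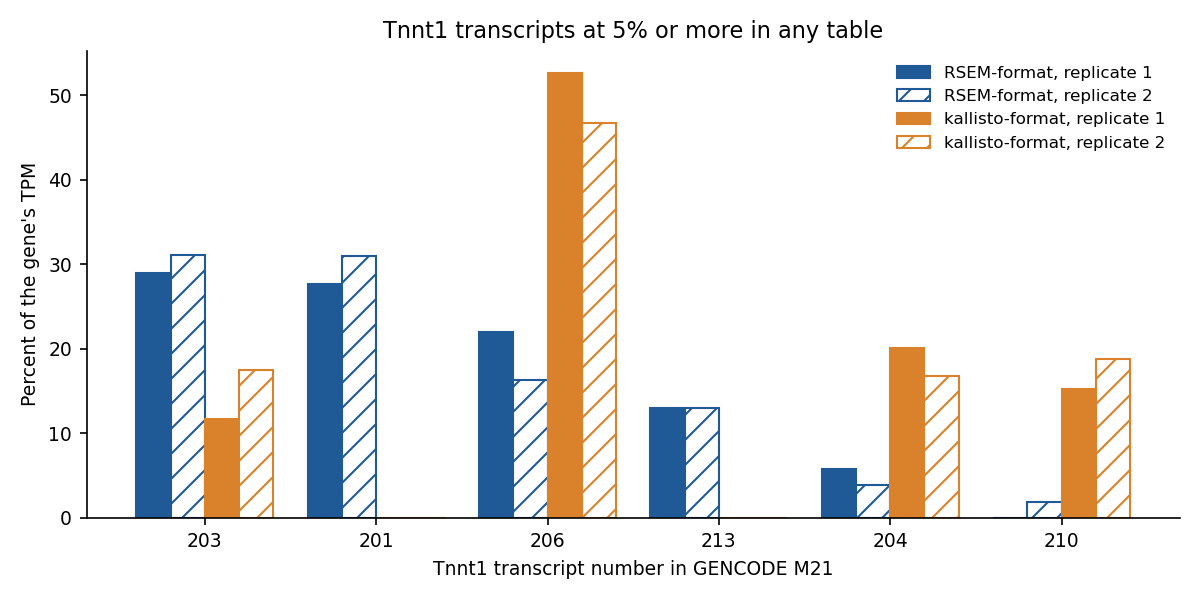
Percent of Tnnt1 TPM held by each of the 6 transcripts that reach 5% in any table, with blue bars for RSEM-format and orange bars for kallisto-format tables, filled for replicate 1 and hatched for replicate 2. Tnnt1-203 and Tnnt1-201 lead in blue near 30%, and Tnnt1-206 leads in orange at 52.6% and 46.7%.

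Tnnt2 was expressed mainly in forms with exon 5, the exon known from embryonic heart. It is shown because its use was high in both formats (chromosome 1, 135843785 to 135843814, plus strand).
Tnnt2 exon 5: aggaagactggagtgaagaagaggaggacg
It was in 80.3% and 87.7% of Tnnt2 TPM in the RSEM-format tables and in 95.8% and 88.5% in the kallisto-format tables. The leading transcript was Tnnt2-207 in the first, at 63.5% and 76.0%, and Tnnt2-209 in the second, at 72.4% and 75.3%, and Tnnt2-207 was at 0 there.

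The troponin C genes had the same leading transcript in both formats and both libraries. Tnnc2-201 held 99.99% and 99.98% of Tnnc2 and Tnnc1-202 held 99.2% and 99.4% of Tnnc1 in the RSEM-format tables. In these shares the formats differed by at most 0.0516% of the gene. The counts of the genes themselves did differ between formats. RSEM-format counts were 103369 and 125276 for Tnnc2 and 2265 and 2475 for Tnnc1, and kallisto-format counts 84333 and 108926 and then 1415 and 1599. Tnni2-201, which held 97.8% and 98.2% of Tnni2 in the RSEM-format tables, held 1.26% and 1.65% in the kallisto-format tables, where Tnni2-203 led and Tnni2-202 held 44.6% and 45.8%. Tnni1-207 held 91.8% and 93.1% in the first and 13.5% and 0.00463% in the second. For Tnni3 the RSEM-format tables were led by Tnni3-202, a retained intron, at 50.6% in replicate 1 and by Tnni3-201 at 53.1% in replicate 2, on 10 and 18 counts for the gene, and the kallisto-format tables were led by Tnni3-204 at 68.5% and by Tnni3-201 at 44.9%. The share of a gene that would have to be placed on other transcripts to make the formats equal was 97.4% and 97.2% for Tnni2, 67.9% and 59.9% for Tnnt3 and 60.3% in each library for Tnnt1.

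Between the libraries the fast troponin genes had the higher ratios of the well counted members. After scaling by TMM, a trimmed mean over genes, the log2 ratio of replicate 2 over replicate 1 was 0.45 for Tnnt3, 0.45 for Tnni2 and 0.34 for Tnnc2. It was 0.22 for Tnnt1, 0.19 for Tnnc1, 0.13 for Tnni1 and -0.06 for Tnnt2. Of the 7 members with a mean count of at least 100, 6 lay above 0, beside 58.1% of 11760 genes. Of the same 7, 0 were 2-fold or more higher in replicate 2, beside 0.204% of all genes, and 0 were as much lower, beside 0.859%, which makes 1.06% in either direction. At 1.5-fold the count was again 0, beside 4.33%. The median was 0.22 over the members and 0.05 over all genes, and 0.53 over the listed fast fibre genes and 0.11 over the slow ones. Scaling by library totals moved the median of all genes to -0.16 and that of the members to 0.00317, and scaling by spike-in totals moved them to -0.31 and -0.15. Under the last scaling 2 of the 7 members, Tnnt3 and Tnni2, were above 0.

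The genes for T and I lie in neighbouring pairs on the same strand. Tnni2 and Tnnt3 are 54425 bases apart with Lsp1 between them, Tnni1 and Tnnt2 are 25364 bases apart with Lad1 between them, and Tnnt1 and Tnni3 are 1922 bases apart with no gene between. Levels within the pairs differed to unlike degrees. Tnni2 and Tnnt3 were within 1.52-fold of each other, at 5002 and 5771 TPM beside 7593 and 8766. Tnni1 was 4.08-fold and 4.53-fold above Tnnt2, at 94.9 and 86.9 TPM beside 23.3 and 19.2. Tnnt1, at 171 and 166 TPM, lay far above Tnni3, at 0.61 and 0.94. Other genes overlap some members. The noncoding Prr33 lies opposite Tnnt3 over 7936 bases at 37.3 and 47.5 TPM, Nisch opposite Tnnc1 over 3418 bases at 81.0 and 53.6 TPM, and Ube2c opposite Tnnc2 over 1662 bases at 7.48 and 6.96 TPM. Dnaaf3 overlaps Tnni3 on the same strand over 1297 bases at 0.10 and 0.19 TPM. No source used here states whether the counting used strand, so reads of a gene on the opposite strand may enter the levels of Tnnt3, Tnnc1 and Tnnc2. For Tnni3 and Dnaaf3, on the same strand, strand would not separate the reads.

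Splicing factors of muscle were also transcribed, and no value here ties them to the alternative exons above. Of 10 splicing factors known to act in muscle, 10 were detected, with Mbnl1 at 104 and 106 TPM, Mbnl2 at 94.5 and 99.6 and Rbfox2 at 106 and 87.5. Muscleblind proteins such as Mbnl1 are known to promote adult splicing of Tnnt2 and Tnnt3. The tables hold no protein or splice junction values, so the levels of these factors and the exon shares stand side by side without a test.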

How the data were processed

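The 2 libraries, labelled biological replicates 1 and 2, were used as deposited. The deposited gene and transcript tables, called RSEM-format here, give expected counts, TPM and each transcript's percent of its gene, and the deposited kallisto-format tables give estimated counts and TPM, per the file headers. The aligner, quantifier and versions were not given in the sources used. Genome and annotation were mm10 and GENCODE M21, per the deposited text files, and sequences were read from its transcripts. CAST/EiJ alleles were not treated separately. Rows naming no gene, with phiX at most 0.000139% of counts, were left out with spike-ins. The deposited tables also give lengths, posterior mean TPM and percent, and interval bounds.

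Shares and log2 ratios were taken within each library, exon shares from the TPM of transcripts holding an exon. Expected counts were rounded and scaled by TMM over genes averaging 10 counts or more, prior count 0.5 (edgeR 4.0.16, R 4.3.3). DESeq2 1.42.0 gave alternative size factors. Only the ratios of replicate 2 over replicate 1 were tested on simulated counts, not the subunit ratios, fast shares or exon shares. The planted changes were larger than the library ratios of the well counted members, and the outcome is not reported here. Python 3.11.15, numpy 2.4.6 and pandas 2.3.3 did the rest. Text names all members, Tnnt3 and Tnnt1 transcripts at 5% or more in any table, and other members' leading transcripts. By the rule it also names the 3 highest genes of each list and those at 0. Lists of other cell types, however, are given as sums, with some genes named, or left out. Others named were chosen after their values were seen, as were the exon shares. Members and lists were chosen with earlier results of these data known. Promoter and protein sequences were not used. A list of kinases and calcium sensors is not reported here in full.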

Additional observations from a re-analysis of the deposited data

How the results depend on the processing

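No paired analysis was possible because the series has 1 group. The cause of the changes below was not tested. In the kallisto-format tables the fast share was 96.9% of T, 97.6% of I and 98.5% of C (protein coding transcripts alone, a choice made after seeing the data: 96.9%, 95.0% and 98.5%), and undivided counts gave 97.4% of I. Log2 T over C, all genes, was 0.20 (coding 0.18), I over C -1.23 on coding transcripts, and T over I 0.37 (coding 1.41), with 0.612 from posterior mean TPM and 0.66 from counts over annotated length. For slow genes the kallisto-format T over C was 1.12 (coding 1.13), I over C reversed to 0.52 (coding 0.53) and T over I was 0.60 (coding 0.60); posterior mean TPM gave T over C 0.423, and annotated length T over C 0.47 and I over C -0.40. Tnnt3 transcripts numbered 7 at a 5% limit and 3 in the kallisto-format tables, where Tnnt1-203 held 14.6%. Kallisto-format exon shares were 96.4%, 95.5%, 91.0%, 73.0% and 73.0% for Tnnt3 exons 4, 6, 7, 8 and F, 50.2% for Tnnt1 exon 5 and 92.2% for Tnnt2 exon 5. Posterior mean TPM gave 75.1% for Tnnt3 exon 4 and 75.7% for Tnnt2 exon 5, and coding transcripts 75.3% for Tnnt3 exon 4. The members' median library ratio was 0.00317 by library totals, -0.15 by spike-ins and 0.29 from kallisto-format counts. Spike-in scaling reversed Tnnc2 (-0.026), Tnnt1 (-0.15), Tnnc1 (-0.18) and Tnni1 (-0.23), and library totals reversed Tnnc1 (-0.025) and Tnni1 (-0.081). Leaving out either replicate gives the other's value, as printed, with no spread. Depth limits Tnni3, at 10 and 18 counts, and Tnnt2, at 646 and 593.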
